A study of Drosophila melanogaster with 38 samples.

Results

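Flies that had eaten a rich diet until day 40 and were then moved to a restricted diet were compared with flies that had eaten the restricted diet all along, 1 to 3 days after the move. At these hours both cohorts ate the same food, and by design they differed in the food eaten before the switch. The comparison holds 12 of the 38 arrays of the series: the 6 of the switched cohort (SF) and the 6 of the restricted food cohort (RF) collected 24, 32, 40, 48, 56 and 72 h after the switch, paired by hour. The 6 arrays of the control food cohort (CF) of the same hours show where each gene lay on the rich diet, and the CF and RF arrays of 2 to 18 h show the diet difference on other RNA samples. All flies were Canton-S females aged 40 days at the switch, kept with males. Control food held 150 g/L sucrose and 150 g/L autolysed yeast, restricted food 50 g/L of each, and both 20 g/L agar. Each array measured RNA pooled from the heads and thoraces of at least 75 females, and each cohort had 1 array per hour. The 6 hours of a cohort are thus the replicates here, and any lasting difference between the SF and RF vials other than food history cannot be told apart from it.

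Dilution of dietary sugar and yeast lowers egg laying and extends life in Drosophila, and flies moved to diluted food as adults take on the low mortality of restricted flies within days. In the fly, sugar and protein intake are read by insulin-like peptides from brain neurosecretory cells and by adipokinetic hormone, the counterpart of glucagon. These hormones set how gut and fat body make digestive enzymes and use stores. A transcript can follow the new food at once, follow it slowly, or stay where the old food had set it.

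Values are log2 expression scores, in which a difference of 1 is a 2-fold change, and differences are means of the 6 pairs with their standard error (SE). A probe set was called when limma's test of SF minus RF had an adjusted p under 0.05. Of 9420 probe sets tested, 489 (5.19%) were called, 177 higher in SF (1.88%) and 312 lower (3.31%). At an unadjusted p under 0.05 there were 2150. The called differences were small, with a median size of 0.43 on the log2 scale, and 13 exceeded 2-fold. In 436 of the 489 the sign was the same in all 6 pairs. The 6 SF scores lay wholly outside the 6 RF scores in 100 of the called probe sets, 31 above and 69 below, against 147 (1.56%) of all tested. Single pairs weighed heavily on the count. Without 56 h it was 35 higher and 69 lower, without 32 h 58 and 100, without 48 h 66 and 160, and without 24 h 117 and 183. Calls that held whichever hour was left out numbered 90, 30 higher and 60 lower.

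Transcripts of the ovary were present and averaged higher in SF than in RF, though not in every pair. The labelled tissue is head and thorax, yet the chorion genes Cp15 and Cp36, which are made by follicle cells of the ovary, had mean scores of 13.4 and 13.2. The mean of 14 eggshell genes ran from 9.83 to 11.8 in RF and from 10.8 to 11.9 in SF at 24 to 72 h. The lowest RF array was that of 32 h, where SF exceeded RF by 1.39, against -0.19 to 0.55 in the other pairs. A list of 28 female germline genes had a median SF minus RF of 0.27, with 26 of 28 above 0, against a median of -0.01 over all 7826 genes tested. That list was written after calls such as CycB3 and pim had been seen, so that its shift is a description only. With the eggshell mean as a covariate 12 probe sets were called higher and 17 lower, all 29 of them among the 489, and with the germline mean 0 and 1. With so few left in all, a call lost under either covariate does not set a gene or list apart. All 10 hemocyte genes, all 7 photoreceptor genes and all 7 fat body genes had a mean SF minus RF below 0, with 0 called by limma (7, 0 and 0 at an unadjusted p under 0.05), and their list means ran from 9.28 to 9.79, 10.1 to 10.7 and 13.1 to 13.5 in RF and from 9.09 to 9.36, 9.96 to 10.5 and 13.0 to 13.3 in SF. Of all 7826 genes tested, 4097 were below 0 and 1822 had an unadjusted p under 0.05. The part of these lists in the other differences was not tested. Head and thorax markers were present, with mean scores of 8.72 for the neuronal gene elav and 10.5 for the flight muscle actin gene Act88F, and the 15 genes of male accessory gland and testis had mean scores of 3.05 to 5.52, below the minimum of 6 for testing.

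**Figure D1:**
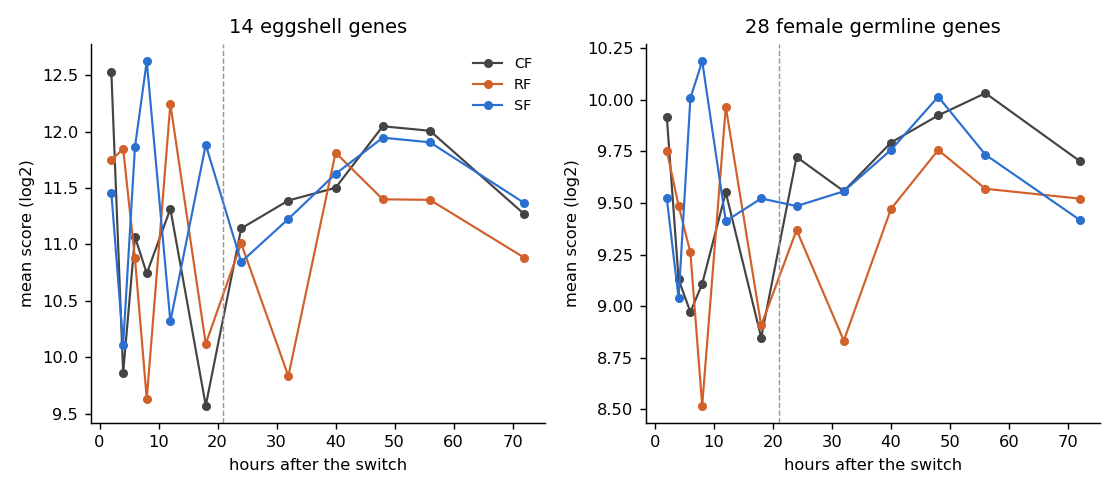
Mean log2 score of 14 eggshell genes (left) and 28 female germline genes (right) against hours after the switch, 1 point per array for CF (grey), RF (orange) and SF (blue), with a dashed line between 18 and 24 h. Of the arrays from 24 h on, that of RF at 32 h is the lowest, at 9.83 for eggshell and 8.83 for germline genes.

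The called probe sets were placed by where SF lay against both constant diets. RF and CF at 24 to 72 h were called apart in 1723 probe sets (18.3%) and SF and CF in 406 (4.31%), and both comparisons share arrays with SF minus RF. An error in an RF array moves SF minus RF and CF minus RF the same way, so that the class counts are a description only. In 294 of the 489 (60.1%) RF and CF were also called apart and SF lay from RF toward CF, 112 of them higher and 182 lower than RF. Without 40 h the number toward CF was 189, of 195 higher and 355 lower calls, and by the methods' paired t-test 7 of 29. In 15 of these 294 SF was also called apart from CF. In 9 SF lay beyond RF, away from CF, in 52 SF differed from CF while RF and CF were not called apart, and in 134 only SF and RF were called.

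The CF and RF arrays of 2 to 18 h are not part of this contrast. On them, CF minus RF had the sign of the late SF minus RF in 269 of the 489 (55.0%), against 46.4% of all tested. The share was 201 of 312 (64.4%) for probe sets lower in SF and 68 of 177 (38.4%) for those higher, and over all tested 55.9% had CF below RF and 44.1% above. Of those placed toward CF it was 151 of 182 (83.0%) for the lower and 43 of 112 (38.4%) for the higher. Where CF and RF differed at an unadjusted p under 0.05 on those arrays, the sign was the same in 115 called probe sets and opposite in 26, against 552 and 377 over all tested. Of the 29 probe sets called with the eggshell covariate, 27 had the same sign. SF minus RF at 2 to 18 h, on separate arrays of both cohorts, had the late sign in 468 of 489 (95.7%), against 71.7% of all tested. By limma, adjusted on its own, this early SF minus RF was called in 0 probe sets. Its median size was 0.28 in the 489, against 0.10 over all tested, so 0 calls do not show that it was absent. At these hours SF minus RF of the eggshell mean ran from -1.93 at 12 h to 2.99 at 8 h. A shared sign does not tell food history from another lasting difference between the cohorts.

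The 24 genes described next had the largest called differences among those of 1 sign in all 6 pairs, 12 each way, and their counts rest on that choice. Act88F (1.03) and CG15534 (0.98), called with 5 of 6 pairs of 1 sign, were left out by it. SF lay toward CF in 20 of the 24, beside 60.1% of all 489 called. In 19 of the 24 the 2 to 18 h arrays had CF minus RF of the same sign, against 46.4% of all probe sets tested. In 15 the SF and RF scores did not overlap, against 1.56% of all tested. Of the 24, 17 were called whichever hour was left out and 15 with the eggshell covariate. But 5 were called by the paired t-test. With the germline covariate, whose genes were listed after calls had been seen, 1 was called, Cpr47Ef. It was the only call that this setting left. The SF minus RF differences ran from 0.81 to 1.54 in the higher genes and from -1.13 to -0.81 in the lower ones.

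**Figure D2:**
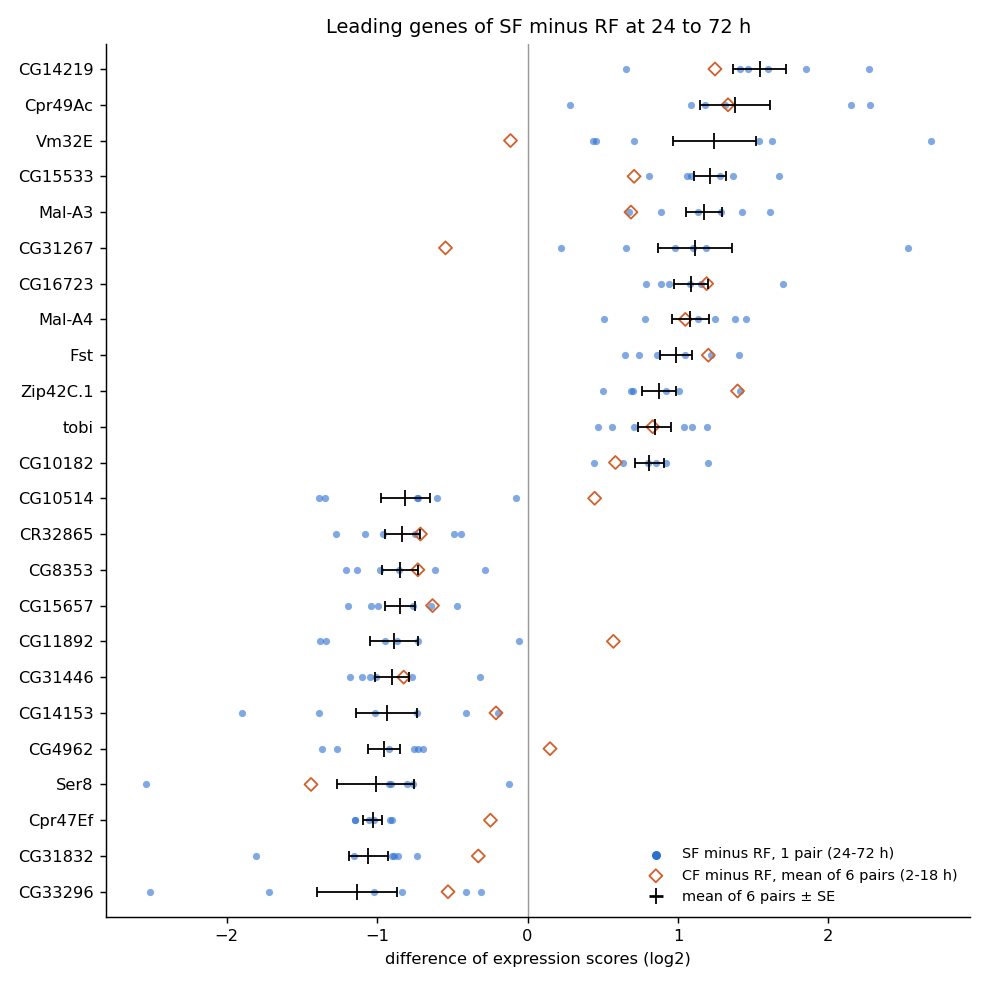
Log2 difference SF minus RF at 24 to 72 h in the 12 highest and 12 lowest called genes of 1 sign in all 6 pairs (rows), as 6 pairs (blue points) with their mean and SE (black), and CF minus RF at 2 to 18 h on other arrays (open orange diamonds). In 19 of 24 genes the diamond lies on the same side of 0 as the mean, against 46.4% of all probe sets tested.

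Genes for sugar-splitting enzymes stood above RF in SF, close to their level on the rich diet. Maltases and amylases split sucrose, maltose and starch in the gut, and 5 of 12 tested were called higher in SF, 0 lower, beside 1.88% and 3.31% of all probe sets tested. The list median was 0.42 and 11 of 12 differences were above 0, against 47.6% over all genes. Mal-A3 scored 8.19 to 8.54 in RF (median 8.43) and 9.14 to 10.1 in SF (median 9.46), with every SF array above every RF array. SF exceeded RF by 1.17 (SE 0.12, adjusted p = 0.00271), which makes its transcript 2.25 times as abundant. The CF scores of Mal-A3 ran from 8.85 to 9.54, so that SF reached as high as CF or higher.

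Mal-A4 lies next to Mal-A3 in the genome and behaved alike. It scored 9.35 to 9.93 in RF, 10.4 to 11.1 in SF and 10.7 to 11.0 in CF, again with no overlap of SF and RF. SF exceeded RF by 1.08 (SE 0.12, adjusted p = 0.00371), and SF minus CF was 0.02 (adjusted p = 0.9). tobi encodes an alpha-glucosidase whose transcript is a known target of insulin and adipokinetic hormone signalling. Its scores were 11.3 to 12.1 in RF, 12.3 to 12.6 in SF and 12.4 to 12.9 in CF. The tobi difference was 0.84 (SE 0.11, adjusted p = 0.00499), and at all 6 hours SF was above the highest RF array. The amylase-related gene Amyrel was higher by 0.58 (SE 0.12, adjusted p = 0.0275) and Mal-A6 by 0.37 (SE 0.08, adjusted p = 0.0256). Mal-A1, Mal-A2, Mal-A7 and Mal-B1, with differences of 0.24 to 0.57, had adjusted p values of 0.0501 to 0.0654. On the 2 to 18 h arrays CF exceeded RF by 0.69 in Mal-A3, 1.05 in Mal-A4 and 0.83 in tobi. Mal-A3, Mal-A4 and tobi were called whichever hour was left out and with the eggshell covariate, but none of them with the germline covariate. Mal-A4 and tobi were not called by the paired t-test. Mal-A6 was not called without 24, 32 or 56 h, and the list then held 3 calls in each of these settings.

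**Figure D3:**
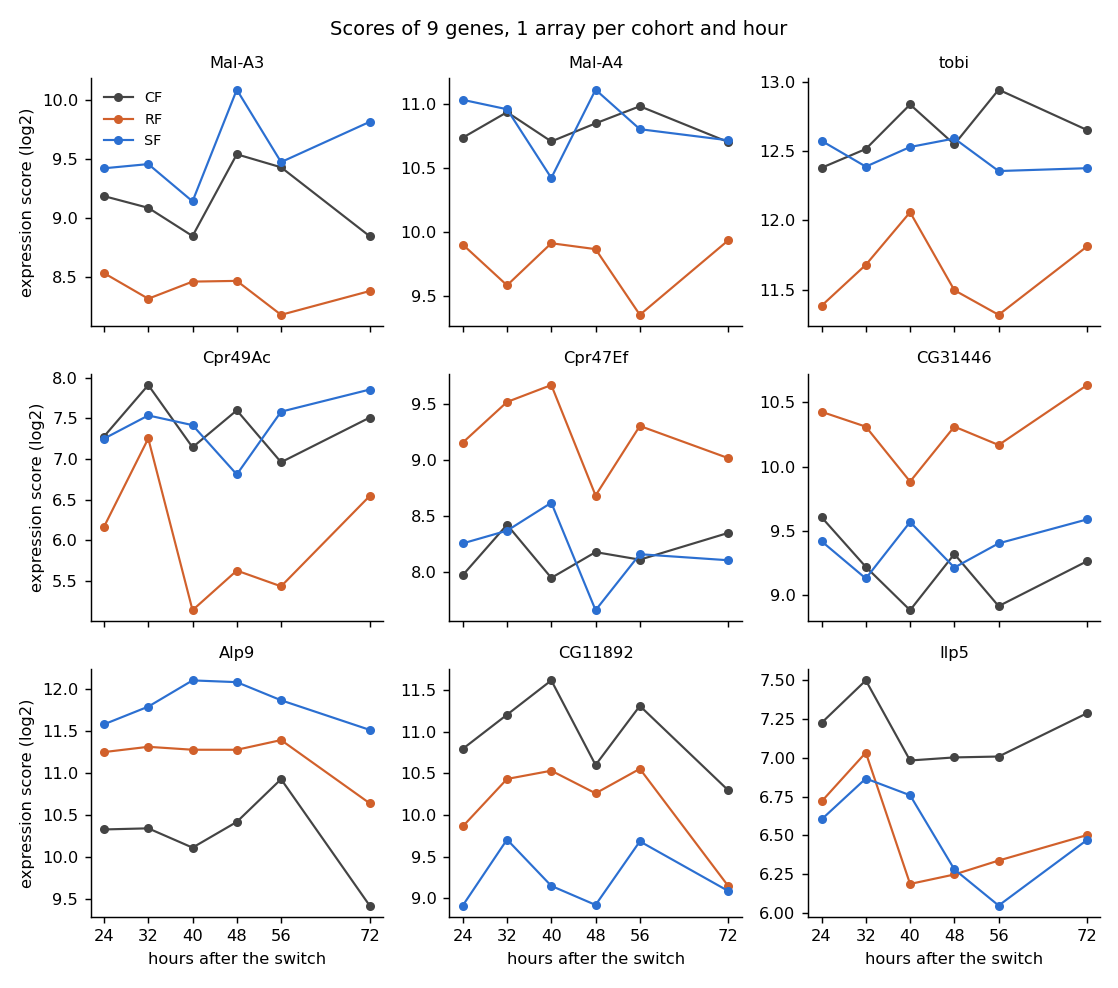
Log2 expression scores of 9 genes against hours after the switch, 1 array per point, in CF (grey), RF (orange) and SF (blue). SF runs with CF in Mal-A4, tobi, Cpr49Ac, Cpr47Ef and CG31446, beyond RF in Alp9 and CG11892, and with RF in Ilp5.

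CG14219, an uncharacterised gene, had the largest of the called differences. Its scores were 7.39 to 8.58 in RF (median 7.72), 9.14 to 9.96 in SF (median 9.24) and 9.06 to 10.0 in CF. Every SF array was above every RF array, and the mean difference was 1.54 (SE 0.17, adjusted p = 0.00358), or 2.91 times as much transcript. Its neighbour CG14205 was higher by 0.79 (SE 0.14, adjusted p = 0.0165). CG16723, also uncharacterised, scored 4.53 to 5.59 in RF and 5.63 to 6.74 in SF, a difference of 1.09 (SE 0.11, adjusted p = 0.00284). All its RF scores lay under 6, the minimum mean for testing, and it was tested because its mean over the 36 arrays of 2 to 72 h, CF and SF included, was 6.08. CG10182 was 8.50 to 9.26 in RF and 9.52 to 10.1 in SF, a difference of 0.81 (SE 0.10, adjusted p = 0.00387). Both groups were separate in these genes. In all 4 CF exceeded RF at 2 to 18 h, by 1.25 in CG14219, 0.92 in CG14205, 1.19 in CG16723 and 0.58 in CG10182.

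CG15533 and CG15534, neighbouring genes of the acid sphingomyelinase family, whose enzymes cut sphingomyelin to ceramide, were both higher. CG15533 scored 9.29 to 10.1 in RF (median 9.59), 10.6 to 11.0 in SF (median 10.8) and 9.81 to 10.6 in CF. SF was above all RF and all CF arrays. The difference from RF was 1.21 (SE 0.11, adjusted p = 0.0016) and that from CF 0.67 (adjusted p = 0.013). CG15534 was higher than RF by 0.98 (SE 0.23, adjusted p = 0.0345), in 5 of 6 pairs, and SF minus CF was 0.00.

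Fst, or Frost, is best known as a transcript that rises in flies recovering from cold. It scored 9.67 to 10.3 in RF, 10.4 to 11.5 in SF and 10.5 to 11.6 in CF. SF and RF did not overlap, and the difference was 0.99 (SE 0.10, adjusted p = 0.00286). Zip42C.1 encodes a zinc transporter of the ZIP family. It was the 1 call among 20 genes of zinc transport and metallothioneins, a share near the 5.19% of all probe sets tested. Scores were 5.37 to 6.62 in RF, 6.62 to 7.12 in SF and 7.14 to 7.69 in CF. SF lay between the other cohorts, higher than RF by 0.87 (SE 0.11, adjusted p = 0.00525) and lower than CF by a difference of -0.61 (adjusted p = 0.0017). With the eggshell covariate the Zip42C.1 difference was 0.88 (adjusted p = 0.053).

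The 24 genes also held genes whose calls leaned on single pairs. Vm32E encodes a vitelline membrane protein of the eggshell. It scored 7.15 to 10.2 in RF and 9.83 to 11.3 in SF, with an overlap, and its RF score was 7.15 at 32 h against 9.51 or more at the other hours. The difference was 1.24 (SE 0.28, adjusted p = 0.0308), was not called without 24 or 48 h, and was 0.82 with the eggshell covariate (adjusted p = 0.271). CG31267 was higher by 1.11 (SE 0.25, adjusted p = 0.0302) but not called without 24, 48, 56 or 72 h. At 2 to 18 h CF minus RF was -0.11 in Vm32E and -0.55 in CG31267, opposite to the late SF minus RF. The cell cycle genes pim (0.58), CycB3 (0.59) and Orc1 (0.63) and the maternal tubulin gene gammaTub37C (0.59) were also called higher, and their CF minus RF at 2 to 18 h ran from -0.30 to -0.03.

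Among cuticle protein genes more were called lower in SF than higher. Cuticle proteins bind chitin in the exoskeleton, and 6 of 24 tested were called lower and 1 higher, beside 3.31% and 1.88% of all tested, with a list median of -0.32. With the eggshell covariate 1 was called lower and 1 higher, and the median was -0.18. Cpr47Ef had the steadiest difference of the 24 leading genes. It scored 8.68 to 9.67 in RF (median 9.23), 7.66 to 8.62 in SF (median 8.21) and 7.95 to 8.42 in CF. Each pair differed by about the same amount, so that the mean of -1.03 had an SE of 0.06 (adjusted p = 6.68e-04), and the call held in all 17 alternatives run. Cpr49Ac went the other way. Its scores were 5.14 to 7.25 in RF, 6.81 to 7.85 in SF and 6.96 to 7.91 in CF, and the difference was 1.38 (SE 0.23, adjusted p = 0.0136) with some overlap. The cuticle genes Cpr66D, Cpr97Eb, Cpr72Ec, Cpr49Ag and Cpr60D were lower by 0.38 to 0.48, and of the list's 6 lower calls 2 were left without 32 h and 2 without 56 h.

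Chitin also lines the gut as the peritrophic matrix, and 6 of 26 genes of chitin handling and that matrix were called lower, 0 higher, again beside 3.31% and 1.88%. They were Cda5, a chitin deacetylase gene, at -0.65 (SE 0.13, adjusted p = 0.0211), Peritrophin-15b at -0.60, Peritrophin-15a at -0.53, the chitinase-like gene Idgf5 at -0.39, obst-E at -0.34 and the mucin gene Muc68E at -0.32. Peritrophin-15a scored 11.2 to 11.7 in RF and 10.6 to 11.1 in SF, without overlap, and 10.7 to 11.0 in CF. The list median was -0.07, near that of all genes. Of the 26, 0 were called without 32 h, without 56 h or with the eggshell covariate, which left 29 calls among all probe sets.

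Among digestive proteases the direction was mixed. Of 36 Jonah and trypsin-like genes, which encode serine proteases of the gut lumen, 4 were called lower and 1 higher (3.31% and 1.88% of all tested), with a median of -0.02. Fitted with the eggshell covariate, 1 lower call was left. Ser8 was lower by a difference of -1.01 (SE 0.26, adjusted p = 0.0444), with RF at 7.46 to 9.08 and SF at 6.46 to 8.32. Its groups overlapped, and it was called only without 24 h among the settings that left out an hour. Jon66Ci scored 9.48 to 10.7 in RF and 8.96 to 10.1 in SF, a difference of -0.73 (SE 0.13, adjusted p = 0.016) that held whichever hour was left out. Its neighbour Jon66Cii was lower by a difference of -0.46 and Jon99Fi by -0.41, while Jon25Biii was higher by 0.37. CF minus RF at 2 to 18 h was negative in the 4 lower genes, from -1.44 in Ser8 to -0.39 in Jon66Cii.

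Several of the genes that lay lowest against RF have only a CG number as their name. CG31446 scored 9.88 to 10.6 in RF (median 10.3), 9.13 to 9.59 in SF (median 9.41) and 8.88 to 9.61 in CF. SF and RF were apart and the difference was -0.90 (SE 0.11, adjusted p = 0.0047). CG15657 was 7.32 to 7.78 in RF and 6.12 to 7.01 in SF, a difference of -0.85 (SE 0.10, adjusted p = 0.00383). CG31832 was 7.38 to 8.04 in RF and 6.14 to 7.16 in SF, a difference of -1.06 (SE 0.13, adjusted p = 0.0047). These 3 were called whichever hour was left out and with the eggshell covariate, but neither by the paired t-test nor with the germline covariate. CG4962 (-0.95) was also called at every omission and with the eggshell covariate, but had CF minus RF of 0.15 at 2 to 18 h, and CG8353 (-0.85) was called at every omission but not with the covariate (adjusted p = 0.082). CG33296, the lowest at -1.13 (SE 0.27, adjusted p = 0.0354), was not called without 32, 48 or 56 h, nor CG14153 (-0.94) without 32, 56 or 72 h. The noncoding RNA lncRNA:alphagamma-element:CR32865, which is transcribed from repeats at a heat shock locus, was 7.93 to 8.45 in RF and 7.14 to 7.82 in SF (difference -0.83, SE 0.12, adjusted p = 0.00709). Its probe set is of a kind that can bind more than 1 transcript.

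Of 15 genes of the flight muscle sarcomere 5 were called lower in SF, beside 3.31% of all tested, and 1 higher, with a median of -0.32. With the eggshell covariate 1 lower call was left and the median was -0.15, and with the germline covariate 0 were called. TpnC4, a troponin C gene, scored 8.65 to 9.48 in RF and 7.75 to 8.85 in SF, a difference of -0.78 (SE 0.12, adjusted p = 0.0115, and 0.094 with the eggshell covariate). fln encodes flightin of the thick filament. It scored 9.56 to 10.2 in RF, 8.82 to 9.46 in SF and 8.74 to 9.31 in CF, with SF and RF apart and a difference of -0.68 (SE 0.09, adjusted p = 0.00523). The troponin T gene up (-0.53), the paramyosin gene Prm (-0.48) and Mlp60A (-0.43) were the other 3. Act88F, the flight muscle actin, was called higher at 1.03 (SE 0.26, adjusted p = 0.0458), in 5 of 6 pairs, and among the settings that left out an hour it was called only without 72 h. Without 32 h 3 of the lower calls were left and without 56 h 2. The 15-gene mean was 10.5 to 11.1 in RF, 10.2 to 10.9 in SF and 10.0 to 10.5 in CF. An array cannot tell a smaller share of muscle in the sample from less transcript per muscle.

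Respiratory chain genes differed little, and few were called. In complex I, which passes electrons from NADH to ubiquinone, 26 of 26 subunit genes had a mean SF minus RF below 0, against 4097 of all 7826 genes tested. Their median was -0.16 and their range -0.25 to -0.04. By limma 0 of the 26 were called and 14 had an unadjusted p under 0.05, against 1822 of all 7826. In complexes II to V 28 of 29 were below 0, with a median of -0.13, and 2 were called lower, beside 3.31% of all tested. They were the succinate dehydrogenase subunit genes SdhB at -0.25 (SE 0.07, adjusted p = 0.0499) and SdhC at -0.22 (SE 0.06, adjusted p = 0.0475). Neither was called with the eggshell covariate. SdhC was not called with any hour left out, nor SdhB without 24, 32, 40, 48 or 56 h. RF minus CF had a median of 0.18 in complex I and SF minus CF 0.05. On the 2 to 18 h arrays the median CF minus RF was -0.06. By comparison, 0 of 30 cytoplasmic ribosomal protein genes were called (median 0.03, 0 at an unadjusted p under 0.05). Of 69 mitochondrial ribosomal protein genes 0 were called (median -0.05, 1 at an unadjusted p under 0.05), and of 26 proteasome genes 0 (median 0.05, 0 at an unadjusted p under 0.05).

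**Figure D4:**
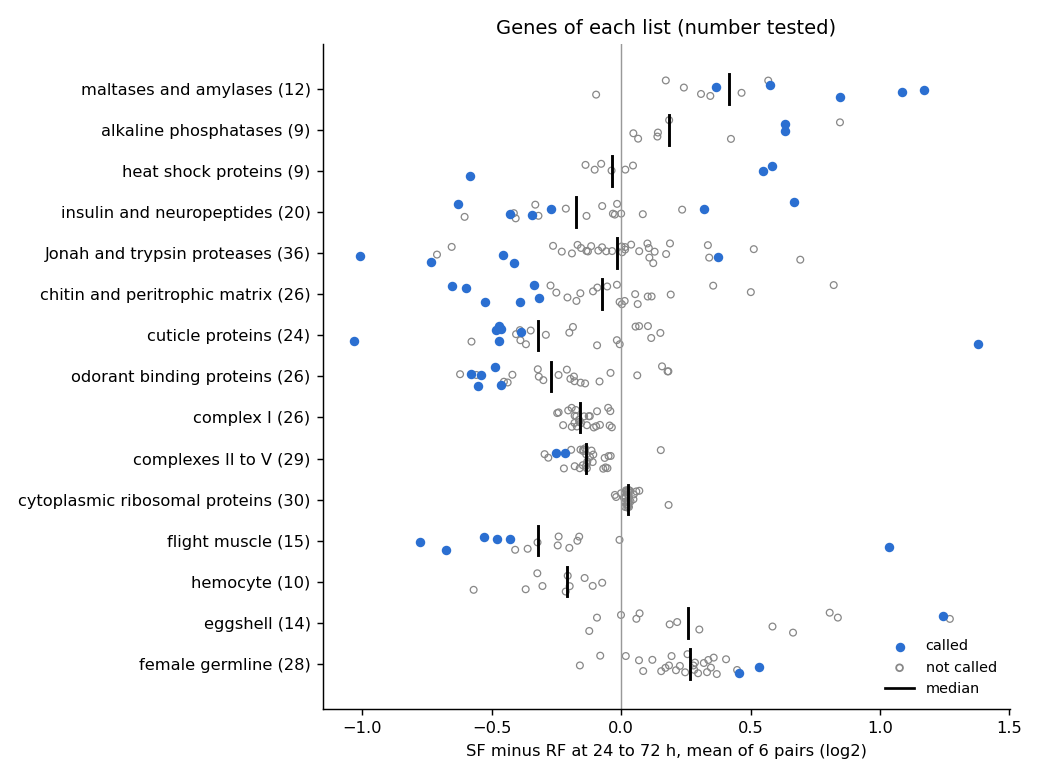
Log2 difference SF minus RF at 24 to 72 h for the tested genes of 15 lists (rows, number of genes in brackets), called genes filled in blue, others open, black bars the list medians. Maltases and amylases lie to the right with a median of 0.42, and all 26 complex I genes lie to the left of 0 with a median of -0.16.

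Of 20 insulin-like and neuropeptide genes, whose products are hormones and signals of the brain and gut, 4 were called lower and 2 higher, beside 3.31% and 1.88% of all tested. Ptth, the prothoracicotropic hormone, scored 7.12 to 7.39 in RF, 6.87 to 7.14 in SF and 6.15 to 6.87 in CF, a difference of -0.27 (SE 0.05, adjusted p = 0.0232). Nplp3 (-0.63), the gut and brain peptide gene Dh31 (-0.43) and NPF (-0.35), which promotes feeding, were the others. ImpL2, a secreted protein that binds and blocks insulin-like peptides, was higher by 0.32 (SE 0.06, adjusted p = 0.0216), with RF at 10.9 to 11.3 and CF at 11.2 to 11.9. Ilp8, a relaxin-like peptide also made in the ovary, was higher by 0.67 (SE 0.11, adjusted p = 0.014). The 4 lower calls were lost without 24, 32 or 56 h, and 0 of the 20 genes were called with the eggshell covariate.

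Odorant binding proteins carry odorants in the fluid of sensory hairs, and 5 of 26 were called lower, 0 higher (3.31% and 1.88% of all tested), with a median of -0.27. With the eggshell covariate 0 were called and the median was -0.14, with Obp57a at an adjusted p of 0.091. Obp57a scored 9.71 to 10.3 in RF and 9.05 to 9.63 in SF, a difference of -0.55 (SE 0.08, adjusted p = 0.00865) without overlap. Obp56e (-0.58), Obp28a (-0.54), Obp44a (-0.49) and Obp57b (-0.46) followed. Without 32 h 2 of the 5 calls were left and without 56 h 1. In the pair of 32 h the list's median was -0.68, against -0.38 to -0.04 in the other pairs.

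In a few genes SF went past RF, away from the rich diet. Alkaline phosphatases free phosphate at cell surfaces in tissues such as gut and Malpighian tubules, and 2 of 9 tested were called higher in SF, beside 1.88% of all tested. The mean difference was above 0 in all 9, against 47.6% over all genes, with a median of 0.19. Of the 9, 4 had an unadjusted p under 0.05, against 1822 of all 7826 genes tested. Alp9 scored 9.42 to 10.9 in CF, 10.6 to 11.4 in RF and 11.5 to 12.1 in SF. The cohorts thus stood in the order CF, RF, SF, with SF above RF by 0.63 (SE 0.09, adjusted p = 0.00728) and above CF by 1.57 (adjusted p = 0.0017). Its neighbour Alp10 scored 9.76 to 11.0 in CF, 10.8 to 11.7 in RF and 11.7 to 12.3 in SF, a difference from RF of 0.63 (SE 0.12, adjusted p = 0.0203). At 2 to 18 h SF was below RF in both, by a difference of -0.24 in Alp9 and -0.32 in Alp10. With the eggshell covariate the late difference was 0.65 in Alp9 (adjusted p = 0.061) and 0.58 in Alp10 (adjusted p = 0.17). Neither was called with the germline covariate, by the paired t-test or over all 12 pairs. CG3739 was the other gene called higher in this way under its main probe set, at 0.57 (SE 0.10, adjusted p = 0.0148).

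A run of neighbouring genes of the ecdysteroid kinase-like family went past RF downward. CG11892 scored 10.3 to 11.6 in CF (median 11.0), 9.15 to 10.6 in RF (median 10.3) and 8.91 to 9.71 in SF (median 9.12). SF was lower than RF in all 6 pairs, by 0.06 at 72 h and by 0.72 or more at the other hours. The differences were -0.89 from RF (SE 0.16, adjusted p = 0.0161) and -1.73 from CF (adjusted p = 0.0014). CG10514 differed by -0.81 (SE 0.16, adjusted p = 0.0224) and CG10513 by -0.50 (SE 0.12, adjusted p = 0.0371), with CF the highest cohort in both. CG11892 was not called without 56 h (adjusted p = 0.051), and CG10514 not without 24, 32 or 56 h. Neither was called with the eggshell covariate, with differences of -1.01 (adjusted p = 0.082) and -0.90 (adjusted p = 0.12). CG17752, at -0.40 (SE 0.07, adjusted p = 0.0163), stood in the same order and was called whichever hour was left out. A second probe set of CG9449 and 1 unnamed probe set made up the rest of the 9, of which 0 were called with the eggshell covariate.

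Other genes set SF apart from both constant diets. AkhR encodes the receptor through which adipokinetic hormone mobilises fat and glycogen. It scored 9.92 to 10.7 in RF, 9.80 to 10.2 in CF and 9.03 to 9.90 in SF, below all RF arrays. The difference from RF was -0.70 (SE 0.11, adjusted p = 0.011) and that from CF -0.48 (adjusted p = 0.028). RF and CF themselves were not called apart (0.22, adjusted p = 0.19). CG11594 scored 8.86 to 9.48 in RF and 8.29 to 8.75 in SF, a difference of -0.55 (SE 0.08, adjusted p = 0.00861), with SF minus CF at -0.50 (adjusted p = 0.01). Pu, the GTP cyclohydrolase gene of pteridine synthesis, was lower by a difference of -0.48 (SE 0.11, adjusted p = 0.0329). Upward, CG14120 (0.62), CG8093 (0.60) and CG10383 (0.62) had every SF array above every RF array. Of the 52 probe sets of this kind 12 were higher than RF and 40 lower, and 0 of these 52 were called with the eggshell covariate.

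Of 9 heat shock protein genes tested 2 were called higher and 1 lower, beside 1.88% and 3.31% of all probe sets tested. The small heat shock protein genes Hsp26 (0.58, SE 0.12, adjusted p = 0.0235) and Hsp27 (0.55, SE 0.12, adjusted p = 0.0297) were higher and the chaperone gene Hsc70-1 lower (-0.59, SE 0.10, adjusted p = 0.0156). Hsp26 was not called without 32, 56 or 72 h, Hsp27 not without 32, 48, 56 or 72 h, and Hsc70-1 not without 56 h. With the eggshell covariate none of the 3 was called under its main probe set, though other probe sets of Hsc70-1 were (-0.60 and -0.53). CG8785, an amino acid transporter gene, scored 10.2 to 10.9 in RF, 9.88 to 10.2 in SF and 9.27 to 10.1 in CF, a difference of -0.46 (SE 0.09, adjusted p = 0.0188). SF lay between the constant diets there, with SF minus CF at 0.36 (adjusted p = 0.042). CG8785 was not called without 56 h (adjusted p = 0.066) or with the eggshell covariate (adjusted p = 0.065). Vha100-4, a subunit gene of the vacuolar proton pump, was lower by a difference of -0.45 (SE 0.06, adjusted p = 0.00709). It was the 1 call among 20 genes of the pump, a share near the 5.19% of all probe sets tested. Genes of beta-oxidation (15 tested), glycolysis and gluconeogenesis (14), the pentose phosphate pathway (5), the circadian clock (8) and insulin and TOR signalling (14) held 0 calls by limma, with 1, 5, 0, 1 and 1 of them at an unadjusted p under 0.05.

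To ask how much of a diet difference was kept, probe sets were chosen on other arrays, those with CF and RF at least 2-fold apart at 2 to 18 h. There were 36, from 1.01 on the log2 scale at the threshold (0.99 just outside it). Of these 12 (33.3%) were called between SF and RF at 24 to 72 h, against 5.19% of all tested, 10 toward CF and 2 away. Where CF had been higher, 7 of 17 were called toward CF and the median SF minus RF was 0.53, beside a late CF minus RF of 1.05. Where CF had been lower, 3 of 19 were called toward CF and 2, Alp9 and Alp10, away. In those 19 the median SF minus RF, counted toward CF, was 0.00, beside a late difference between CF and RF of 0.95. The difference between these medians was not tested. The 7 were CG14219, Cpr49Ac, CG16723, Mal-A4, Fst, Zip42C.1 and the lipase-family gene CG5966, of which CG16723 and Zip42C.1 had a mean RF score under 6, and the 3 were Ser8, CG34005 and CG42397. CG34005 scored 6.90 to 8.33 in RF and 6.32 to 7.09 in SF, a difference of -0.78 (SE 0.14, adjusted p = 0.0151).

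**Figure D5:**
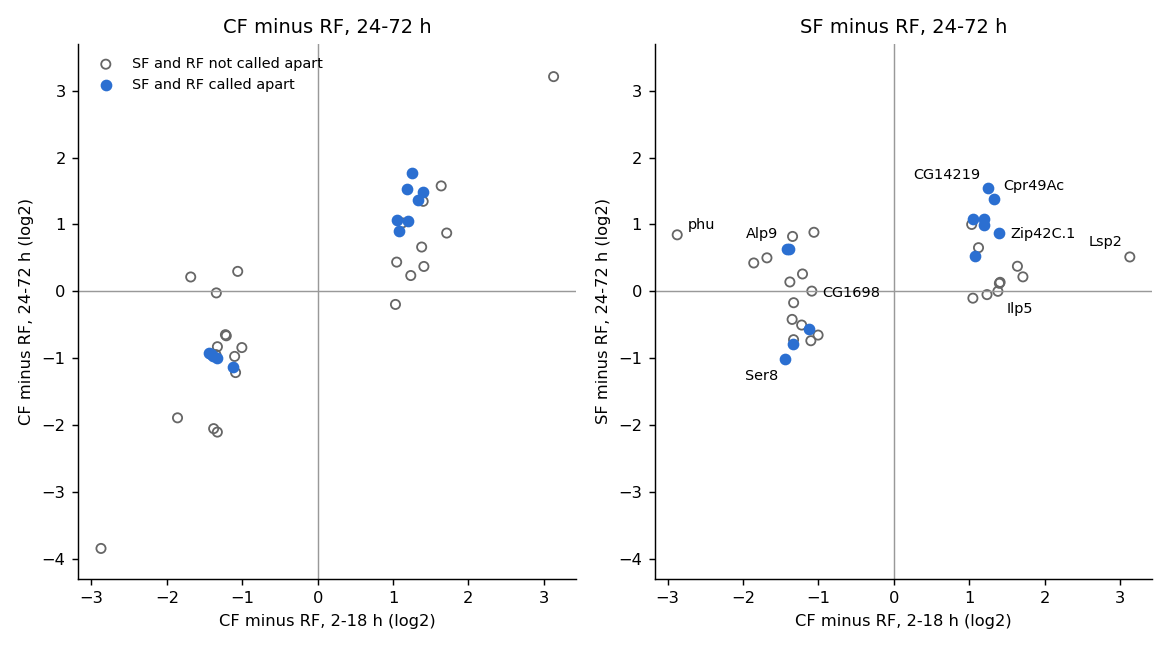
For 36 probe sets with CF and RF at least 2-fold apart at 2 to 18 h (x axis, log2), CF minus RF at 24 to 72 h (left) and SF minus RF at 24 to 72 h (right), both log2 means of 6 pairs, filled where SF and RF were called apart. On the right 10 filled points lie in the direction of CF and 2, Alp9 and Alp10, in the other.

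The other genes of that set were not called, though over all 36 the mean SF minus RF lay toward CF in 24. Ilp5, an insulin-like peptide gene of the brain that responds to food, scored 6.19 to 7.03 in RF, 6.05 to 6.87 in SF and 6.98 to 7.50 in CF. SF minus RF was 0.00 (95% interval -0.24 to 0.24), although CF had exceeded RF by 1.38 at 2 to 18 h. CG1698 scored 9.23 to 9.92 in RF and 9.11 to 9.69 in SF, a difference of 0.00 (95% interval -0.24 to 0.24), with CF at 8.05 to 8.53. Lsp2 encodes a larval serum storage protein. It scored 5.84 to 8.57 in RF, 7.09 to 8.36 in SF and 9.59 to 11.6 in CF, and its difference of 0.51 was not called (95% interval -0.08 to 1.11, adjusted p = 0.239). phu, an alkaline phosphatase gene, was 9.51 to 11.2 in RF, 10.5 to 11.8 in SF and 5.40 to 7.57 in CF, with a difference of 0.85 (95% interval 0.21 to 1.48, adjusted p = 0.0897) directed away from CF. The intervals of Lsp2 and phu are wide enough to hold differences as large as those called elsewhere. CG13947 and Alp2, also of that set, were not called either. CG13947 was at -0.72 (95% interval -1.21 to -0.23, adjusted p = 0.0696), directed toward CF. Alp2 was at 0.42 (adjusted p = 0.0947), directed away from CF. Outside the set, CG11425 (0.71, adjusted p = 0.112) and Ilp2 (0.24, adjusted p = 0.118) were not called.

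Of 425 called genes 421 were placed in the RefSeq order of protein-coding genes, and 44 pairs of immediate neighbours were both called, 36 of them (81.8%) in the same direction. Over all 5165 neighbouring pairs of tested genes, 52.9% had the same sign, whatever its size. Beside the pairs given above, CG8997, CG7916, CG7953 and CG7968 were a run of 4 genes higher by 0.33, 0.49, 0.35 and 0.63. Npc2g and Npc2h, of a family of sterol-binding proteins, were lower by 0.34 and 0.67 on the log2 scale.

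No change of the difference over time was called. Late minus early SF minus RF was tested in 9420 probe sets by limma, and 0 were called (193 at an unadjusted p under 0.05). The slope of SF minus RF over 24 to 72 h was called in 0 (665 at an unadjusted p under 0.05, and 80 without 72 h). With 6 pairs per window, these tests do not show that the differences stayed constant.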

How the data were processed

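Total RNA of female heads and thoraces was hybridised to Affymetrix Drosophila 2.0 arrays. The deposited values are log2 expression scores that the authors made by quantile normalization and RMA, and all 38 arrays were in the value table. Of 18952 probe sets 183 array controls were left out, and 9420 with a mean of at least 6 over the 36 arrays of 2 to 72 h were tested. GEO's platform annotation gave 1 gene for 13647 probe sets, several for 402 and none for 4720, and 13544 were matched to RefSeq (Release 6 plus ISO1 MT). SF minus RF, RF minus CF and SF minus CF at 24 to 72 h were each tested on 6 pairs with limma 3.58.1 in R 4.3.3 (two-sided), and the p values were adjusted together by Benjamini-Hochberg. Pairing by hour follows the methods, since the label of an array gives its collection hour. A paired t-test, array weights, other filters, centring, covariates and omission of each hour were alternatives. The methods used the paired t-test on all time points, and here it was run on the 6 pairs of 24 to 72 h. For each gene the probe set with the highest mean was used. Named genes are the 12 highest and 12 lowest called with 1 sign in all pairs, up to 4 per list by p, and the study's examples. Others, such as AkhR, CG15534 and neighbours, were chosen after their values were seen. The members and gene lists were chosen with earlier results of these data known. The fit was tested on simulated data. Hours of a cohort share vials' history, so p values measure spread between hours. The number of arrays limits the precision. Tables were computed in Python 3.11.15 with pandas 2.3.3 and numpy 2.4.6.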

Additional observations from a re-analysis of the deposited data

Results flagged for a closer look

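Of 85 sets of 6 values examined, 8 had 1 value set apart from the other 5 by Dixon's criterion, where chance alone gives about 1 in 20. The Vm32E score of RF was 7.15 at 32 h against 9.51 or more at the other hours, and the photoreceptor mean of RF was 10.7 at 32 h against 10.3 or less. The RF score of lncRNA:alphagamma-element:CR32865 was 7.93 at 48 h, the others 8.26 or more. The pair of 72 h stood apart in 5 gene lists. There the median SF minus RF was 0.029 in complex I, against -0.14 or lower at the other hours, 0.082 in the pentose phosphate pathway against -0.05 or lower, -0.23 in zinc and metallothionein genes against 0.00 or higher, -0.38 in sugar and amino acid transporters against -0.06 or higher, and -0.14 in heat shock proteins against -0.01 or higher. The weight limma gave the 72 h pair was 0.40, the lowest, and that of 48 h was 3.10, the highest.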

How the results depend on the processing

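The number of calls depended on the setting. Of 9420 probe sets, 177 were called higher and 312 lower, 269 of them with CF minus RF of the same sign at 2 to 18 h, 294 toward CF, 9 beyond RF and 52 apart from both. With no replicate block, that is without the pairing by hour, these 6 counts were 37, 83, 100, 65, 2 and 12. Adjusted on its own, SF minus RF gave 59 higher, 124 lower, 118 of the early sign, 135 toward CF and 13 apart from both. Array weights gave 576, 635, 546, 718, 22 and 115. The eggshell covariate, which also takes up a degree of freedom, gave 12, 17, 27, 19, 0 and 1, and the germline covariate, chosen after seeing the data, 0, 1, 1, 0, 0 and 0. The paired t-test on the 6 pairs of 24 to 72 h gave 12, 17, 23, 7, 0 and 0. A single fit of the 3 cohorts gave 421, 542, 437, 572, 13 and 83, and all 12 pairs 42, 142, 173, 144, 0 and 9. Of the 24 leading genes 15 were called with the eggshell covariate, 5 by the paired t-test and 1 with the germline covariate. Why each moved the counts was not tested. With 1 hour left out they ran from 35 to 224 higher, 69 to 355 lower, 79 to 335 of the early sign, 52 to 262 toward CF, 2 to 8 beyond RF and 10 to 65 apart from both, lowest without 56 h for all 6. No probe set filter or centring moved a count by over 1.5 times, but centring the arrays raised the share of calls that were higher from 36.2% to 44.7%. The window and slope tests gave 0 calls in every setting run. Of 66 named genes that were called, none changed sign in 1110 values under the alternatives, and 410 of these values were past the threshold no longer. Of 612 list medians under alternatives 3 moved by more than their spread over hours. The number of pairs limits the precision.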
